A study of Rattus norvegicus with 18 samples.

Results

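Primary rat microglia were treated with fibrils of Aβ42 or with fibrils of Aβ40, and the RNA of these cells was compared to find the genes and pathways that separate the responses to the fibrils. The comparison rests on the 3 Aβ42 libraries and the 3 Aβ40 libraries of microglia, 6 of the 18 samples of the series, chosen by their titles alone. The microglia came from the cortex of Sprague-Dawley rat pups at postnatal day 2, were shaken off mixed glial cultures, and were kept without serum before fibrils were added at 25 µM for 24 h. Fibrils of each peptide were grown from seeds of the same peptide. The series also holds 3 libraries of untreated microglia, which entered the fit and are given as a reference level, and the same 3 groups of cortical astrocytes. Nothing in the labels or methods says that replicates came from separate animals or cultures, so the p-values measure the spread between these samples, which may be technical. In RNA from whole cultures, fewer cells of a type and less RNA per cell cannot be told apart.

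Microglia are the macrophages of the brain. They take up amyloid through surface receptors, carry it to lysosomes that are acidified by a proton pump, and answer with cytokines, interferon-stimulated genes and changes of lipid and energy metabolism. Cells near amyloid plaques are known to take on a disease-associated state marked by the lipid receptor Trem2 and by genes of lipid handling and lysosomes. Several of these programs have their own transcription factor: SREBP2 drives sterol synthesis when membrane cholesterol is low, HIF1 drives glycolytic and angiogenic genes, NRF2 drives antioxidant enzymes, and TFEB drives lysosomal genes.

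The counts on genes were 2613723, 22274367 and 17687416 in Aβ42 replicates 1, 2 and 3 and 4104702, 4425805 and 2271834 in the Aβ40 replicates. Aβ42 replicate 1 therefore had a depth like that of the Aβ40 libraries, and the other Aβ42 libraries were deeper than every Aβ40 library. It also stood with the Aβ40 libraries in its values. Its mean correlation over 10837 genes, on the log2 scale, was 0.978 with the Aβ40 libraries and 0.961 with the other Aβ42 libraries, which had a correlation of 0.996 with each other. Over the genes that differed between the fibrils, its level lay at a median of 35.3% of the way from the Aβ40 mean to the mean of Aβ42 replicates 2 and 3. Results are therefore given with the value of each library and with the fits that leave out single libraries.

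In the fit of all microglia libraries by edgeR, 2198 of 10837 tested genes differed between the fibrils at an adjusted p under 0.05. Of the tested genes, 1222 were higher with Aβ42 (11.3%) and 976 were lower (9.01%). A difference of 2-fold or more was found for 252 genes that were higher (2.33%) and 140 that were lower (1.29%). The count depended on the libraries used. In a fit of the 6 fibril libraries alone it was 106. Without Aβ42 replicate 1 it was 6004 (53.8%), and without any other fibril library it lay between 99 and 154. When Aβ42 replicate 1 was the only Aβ42 library set against Aβ40, 49 genes were called, of which 47 were higher and 2 were lower. After every library was thinned to the total of the smallest, 656 genes were called. The stricter set of genes called in the same direction whichever fibril library was left out held 74 genes (0.683% of those tested), 49 higher and 25 lower. Some genes named below were chosen from this set, so for them being called in every such fit is no result.

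**Figure D1:**
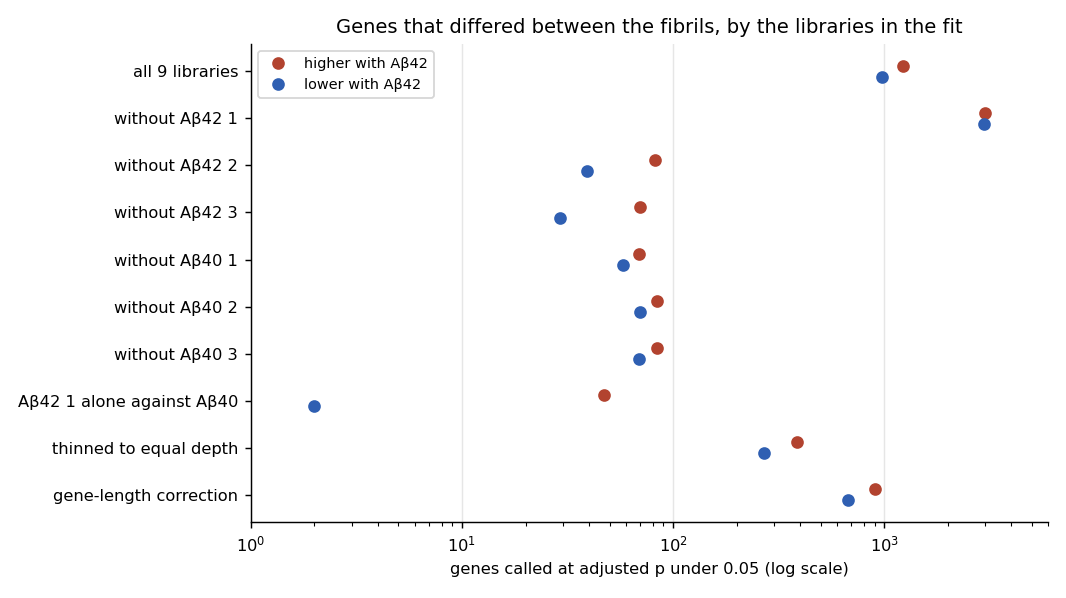
Genes called at an adjusted p under 0.05 (x axis, log scale) in fits that differ in the libraries used or in how they were corrected (y axis). Red points are genes higher with Aβ42 and blue points genes lower. Leaving out Aβ42 replicate 1 raised the count to 6004, and leaving out any other fibril library lowered it to between 99 and 154.

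Markers of other cell types were measured beside those of microglia, and the counts called stand beside 11.3% of all genes higher and 9.01% lower. Of 14 microglial markers 4 were higher with Aβ42 and 0 lower, and their summed level was 2624 to 3759 scaled CPM (counts relative to the library total, after TMM scaling) with Aβ42, 3274 to 3875 with Aβ40 and 9358 to 10895 in untreated cells. The macrophage genes Cd68, Itgam and Ptprc led this sum, while P2ry12 and Cx3cr1, which mark resting microglia, were close to 0 with both fibrils, at 0, 0.563 and 0.798 and 0.483, 0.671 and 1.84 for P2ry12. Markers of the oligodendrocyte lineage summed to 3024, 3931 and 3391 in the Aβ42 libraries and 3124, 3677 and 3006 in the Aβ40 libraries, with Mbp and Cnp of myelin among the most abundant, and 2 of 10 were higher with Aβ42, Olig1 and Cspg4. Of 9 astrocyte markers 4 were lower, with sums of 188 to 230.3 and 239 to 256. Of 4 endothelial markers 3 were lower, with sums of 41.6 to 64.0 and 89.0 to 114, mostly Flt1, and Cldn5 was at 0 in all 6 libraries. Of 7 neuronal markers 1 was lower, Map2, with sums of 485 to 569 and 538 to 553, and of 6 fibroblast markers 1 was higher, Col3a1, with sums of 847 to 1174 and 1046 to 1105, mostly Fn1. Markers of other leukocytes summed to 3.998 to 13.9 and 6.71 to 12.1, with Cd3e, Cd3g, Ms4a1, Nkg7 and Mpo at 0. The marker genes named here were chosen after their values were seen, and the part of these cells in the results was not tested.

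Among genes higher with Aβ42 by 2-fold or more without overlap between libraries, some with small p-values were a mixed group of metabolic and signalling genes. Ndrg1, Insig1, Atp6v0d2 and Egln3, which also met these limits, are given with their lists. Akr1b1, an aldose reductase, was measured at 832, 996 and 1149.9 scaled CPM in Aβ42 replicates 1, 2 and 3, at 366, 353 and 350.3 with Aβ40 and at 121, 110.5 and 127 in untreated cells. All Aβ42 libraries were above all Aβ40 libraries, with a log2 difference of 1.48 ± 0.12 (SE), adjusted p = 0.000546. Gdf15, a stress-induced cytokine, was at 300.3, 507 and 537 with Aβ42 and 169, 175 and 157 with Aβ40, a log2 difference of 1.43 ± 0.18 (SE), adjusted p = 0.00339. Lat, an adaptor of T cell receptor signalling, was at 19.2, 17.8 and 19.5 against 4.83, 6.26 and 6.89, a log2 difference of 1.67 ± 0.18 (SE), adjusted p = 0.00195. The RING finger gene Lonrf3 was at 24.8, 33.3 and 37.5 against 10.9, 10.5 and 8.73, a log2 difference of 1.68 ± 0.20 (SE), adjusted p = 0.00284. Genes of this group were chosen among those whose libraries did not overlap, so the lack of overlap is no result. Each of the 4 genes with values in this paragraph was called in all 6 fits that leave out a fibril library, which was itself among the rules for naming genes. Libraries that did not overlap in that direction were found for 14.8% of tested genes, and in the opposite direction for 14.5%, so that this was common.

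Genes of cholesterol synthesis were higher with Aβ42 than with Aβ40, and this list had the highest median of all lists. Of 26 tested genes of sterol synthesis and uptake, 20 were higher with Aβ42 and 0 were lower, beside 11.3% of all genes higher and 9.01% lower. The median log2 difference of the list was 0.80, beside 0.014 over all tested genes. The log2 difference was above 0 for all 26. By role, 7 of 9 enzymes of the early mevalonate pathway, 9 of 11 enzymes of the later steps to cholesterol and 4 of 6 genes of sterol sensing and uptake were higher. The median level of the list, as log2 relative to the mean of the Aβ40 libraries, was 0.59, 0.95 and 0.70 in the Aβ42 libraries, -0.050, -0.036 and 0.069 in the Aβ40 libraries and 0.45, 0.44 and 0.47 in the untreated libraries. Untreated cells thus lay between the fibrils, and the median log2 difference from them was 0.31 with Aβ42 and -0.41 with Aβ40.

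Insig1, the endoplasmic reticulum protein that holds back SREBP when sterols are plentiful and is itself a SREBP target, was at 143, 187 and 170.2 scaled CPM with Aβ42, 72.4, 61.1 and 66.2 with Aβ40 and 102, 117 and 92.3 in untreated cells, a log2 difference of 1.33 ± 0.13 (SE), adjusted p = 0.00162. Sqle, which makes squalene epoxide and is a rate-limiting step, was at 149.5, 170.2 and 154 with Aβ42 and 88.6, 82.3 and 87.8 with Aβ40, a log2 difference of 0.88 ± 0.11 (SE), adjusted p = 0.00284. Fdft1, the squalene synthase, was at 170.3, 206 and 179 and 91.0, 94.6 and 106, a log2 difference of 0.94 ± 0.12 (SE), adjusted p = 0.00339. Msmo1, which removes methyl groups from sterol precursors, was at 208, 232 and 204 and 110.0, 98.4 and 125, a log2 difference of 0.96 ± 0.11 (SE), adjusted p = 0.00284. In each of the 4 genes every Aβ42 library lay above every Aβ40 library and every untreated library, and the Aβ40 libraries were below the untreated libraries. Untreated cells had 142, 124 and 124 for Sqle, 129, 117 and 106 for Fdft1 and 153, 152 and 145 for Msmo1. In Fdft1 the highest Aβ40 library was next to the lowest untreated library.

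Over the list the log2 difference ranged from 0.12 for Nsdhl, which was not called, to 2.06 for Tm7sf2, which was. These genes and those named next were chosen after their values were seen. Srebf2, which codes for SREBP2 itself, was at 207, 333 and 342 with Aβ42 and 166, 164 and 172 with Aβ40, a log2 difference of 0.82 ± 0.17 (SE), adjusted p = 0.0150. Hmgcs1, an early enzyme of the mevalonate pathway, was at 533, 453 and 351 and 256, 249.6 and 298, a log2 difference of 0.73 ± 0.15 (SE), adjusted p = 0.0163. In Srebf2 Aβ42 replicate 1 was the lowest of the Aβ42 libraries. The call of Srebf2 was lost in 5 of the 6 fits that leave out a fibril library and that of Hmgcs1 in 4. Of the oligodendrocyte markers, Olig1 and Cspg4 were higher with Aβ42 (1.10 ± 0.33, adjusted p = 0.0377 and 0.77 ± 0.21, adjusted p = 0.0307) and Mbp was at -0.039 ± 0.12, adjusted p = 0.831, with a sign that turned in 3 alternative fits. Their part in the level of the sterol genes was not tested.

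Aβ42 replicate 1 stood with the Aβ40 libraries in its overall profile, but it lay with the other Aβ42 libraries in this list. Set alone against the Aβ40 libraries, with its own spread assumed to be that of the other groups, it gave a list median of 0.59, and 9 of the 47 genes higher in that fit (0.426% of those tested) belonged to the list. The whole list held 8 genes that were called whichever fibril library was left out. The same genes had a median difference of 0.17 in astrocytes, where 0 of 26 were called by the same test, beside 10 of all 11690 genes tested there (0.0855%). Neighbouring lipid lists had smaller medians, and their counts stand beside 11.3% of all genes higher and 9.01% lower. Of 10 genes of cholesterol efflux and other LXR targets, 3 were higher and 0 lower, with a median of 0.11, and the 3 were the LXR gene Nr1h2 (0.48 ± 0.11, adjusted p = 0.0220), the gene Soat1 of an enzyme that esterifies cholesterol (0.36 ± 0.10, adjusted p = 0.0296) and the lipid droplet coat gene Plin2 (0.34 ± 0.11, adjusted p = 0.0464). Among 13 genes of fatty acid synthesis 3 were higher and 1 lower (median 0.16). Acss2, which makes acetyl-CoA from acetate, was higher at 0.79 ± 0.16, adjusted p = 0.0138, and Acaca, which commits acetyl-CoA to fatty acids, was lower at -0.42 ± 0.12, adjusted p = 0.0364. The calls of Nr1h2, Soat1, Plin2 and Acaca were lost without any fibril library other than Aβ42 replicate 1. With a correction for gene length, described with the ribosomal genes, Acaca was at -0.11 (adjusted p = 0.477) and Nr1h2 at 0.26 (0.0907).

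**Figure D2:**
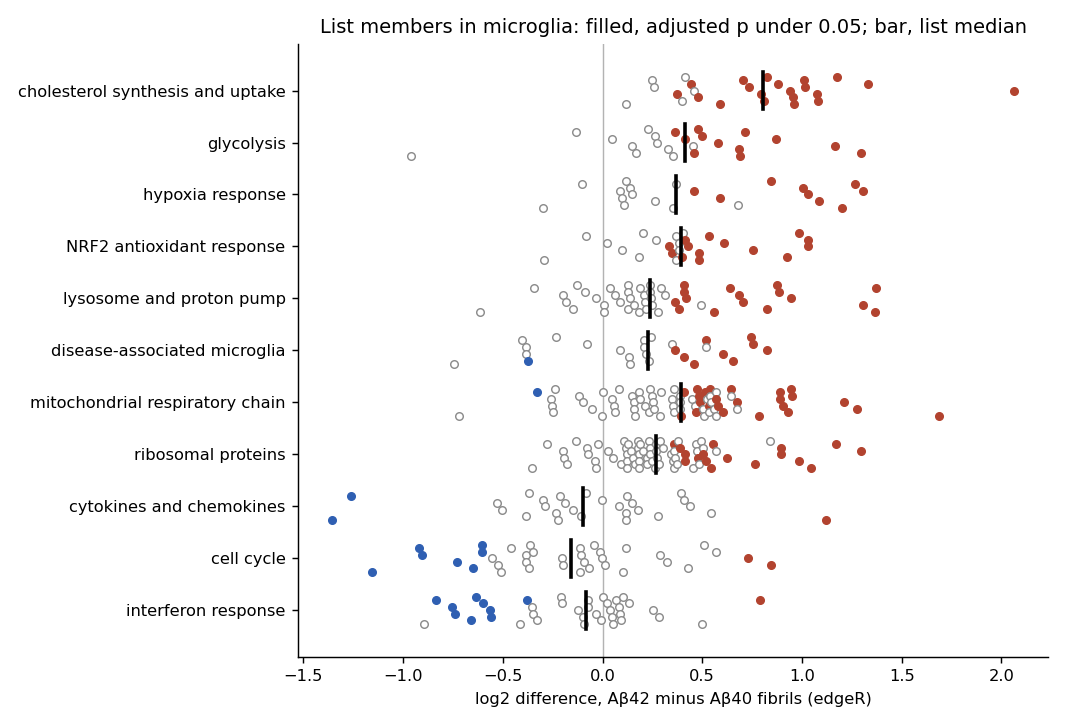
Log2 difference between Aβ42 and Aβ40 fibrils (x axis) for each tested member of 11 gene lists (y axis). Filled points passed an adjusted p under 0.05, open points did not, and the bar is the list median, which was 0.80 for cholesterol synthesis and -0.084 for the interferon response.

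In glycolysis and the hypoxia response, about as many genes were higher with Aβ42 as were not called. Of 23 glycolytic genes 12 were higher and 0 lower (median 0.41), and of 21 genes of the hypoxia response 9 were higher and 0 lower (median 0.37). These counts stand beside 11.3% of all genes higher and 9.01% lower. The level of the glycolytic list was 0.38, 0.40 and 0.54 in the Aβ42 libraries and -0.0076, 0.0092 and -0.021 in the Aβ40 libraries, and that of the hypoxia list 0.27, 0.56 and 0.59 and 0.070, 0.035 and -0.11. No Aβ42 library overlapped the Aβ40 libraries in either list. Untreated cells were below both fibrils in glycolysis, at -0.75, -0.62 and -0.57.

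Ndrg1, a hypoxia-induced gene, was at 295, 305 and 342 scaled CPM with Aβ42 and 153, 153 and 156 with Aβ40, a log2 difference of 1.03 ± 0.10 (SE), adjusted p = 0.00118. Untreated cells had 334, 361 and 334, close to the Aβ42 libraries. Egln3, a prolyl hydroxylase that marks HIF for degradation and is induced by it, was at 73.6, 84.5 and 101 with Aβ42, 39.8, 36.5 and 28.0 with Aβ40 and 6.48, 5.602 and 6.56 in untreated cells, a log2 difference of 1.30 ± 0.15 (SE), adjusted p = 0.00284. Vegfa, the angiogenic growth factor, was at 205, 220.3 and 246 and 109, 91.0 and 92.9, a log2 difference of 1.20 ± 0.16 (SE), adjusted p = 0.00429. Bnip3, a receptor of mitochondrial autophagy, was at 76.8, 104 and 109.5 and 45.1, 50.3 and 42.3, a log2 difference of 1.08 ± 0.16 (SE), adjusted p = 0.00583. Untreated cells had 39.0, 53.1 and 33.3 for Vegfa and 21.7, 29.4 and 27.1 for Bnip3, so that these genes and Egln3 were lowest in untreated cells, while Ndrg1 was lowest with Aβ40.

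In glycolysis, the lactate and proton exporter Slc16a3 was at 71.2, 89.3 and 106 with Aβ42 and 45.4, 33.1 and 30.3 with Aβ40, a log2 difference of 1.29 ± 0.19 (SE), adjusted p = 0.00583. The aldolase Aldoc was at 80.8, 115 and 88.6 and 41.0, 51.7 and 33.1, a log2 difference of 1.17 ± 0.17 (SE), adjusted p = 0.00583. The phosphoglycerate mutase Pgam1 was at 603, 789 and 881 and 435, 401 and 409.6, a log2 difference of 0.87 ± 0.13 (SE), adjusted p = 0.00610, and the phosphoglycerate kinase Pgk1 at 838, 974 and 1094 and 631, 563 and 579.6, a log2 difference of 0.71 ± 0.12 (SE), adjusted p = 0.00749. The 8 genes named from the glycolysis and hypoxia lists were called whichever fibril library was left out.

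Of 26 NRF2 target genes of the antioxidant response 14 were higher with Aβ42 and 0 lower, with a median of 0.39. Over all genes 11.3% were higher and 9.01% lower. The level of the list was 0.34, 0.42 and 0.52 in the Aβ42 libraries and -0.0034, 0.017 and -0.0097 in the Aβ40 libraries. Srxn1, which restores oxidised peroxiredoxins, was at 132, 178 and 169 scaled CPM with Aβ42, 87.1, 76.5 and 71.2 with Aβ40 and 17.1, 14.5 and 12.96 in untreated cells, a log2 difference of 1.03 ± 0.14 (SE), adjusted p = 0.00518. Hmox1, which breaks down heme, was at 544, 686 and 776 and 360.3, 362 and 291, a log2 difference of 0.98 ± 0.15 (SE), adjusted p = 0.00660, and untreated cells had 318, 275 and 361, within reach of the Aβ40 libraries. The peroxiredoxin Prdx1 was at 658, 749 and 761 and 471, 466 and 486, a log2 difference of 0.61 ± 0.095 (SE), adjusted p = 0.00665. These 3 were called whichever fibril library was left out. Sqstm1, the autophagy receptor p62, was at 675, 1069 and 1045 and 484, 534 and 455, a log2 difference of 0.92 ± 0.15 (SE), adjusted p = 0.00844, a call that was lost without Aβ40 replicate 1 or 3.

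Of 21 genes of the amino acid stress response 5 were higher and 0 lower, Atf4 among them (0.47 ± 0.10, adjusted p = 0.0154), and none was called once any library other than Aβ42 replicate 1 was left out. With the length correction 1 of the list was called, and Atf4 was at 0.15 (adjusted p = 0.295). Of 21 chaperone genes of the endoplasmic reticulum 1 was higher, Sdf2l1, and 3 were lower, the stress sensors Ern1 (-0.75 ± 0.20, adjusted p = 0.0278) and Atf6 (-0.59 ± 0.17, adjusted p = 0.0360) and the co-chaperone Dnajc3 (-0.61 ± 0.16, adjusted p = 0.0279). Among 11 heat shock genes 1, Dnajb1, was higher (0.54 ± 0.14, adjusted p = 0.0260). These counts were near the shares over all genes, the 5 calls were lost without any fibril library other than Aβ42 replicate 1, and those of Ern1, Atf6 and Dnajb1 were lost with the length correction (adjusted p of 0.0742, 0.110 and 0.0881).

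**Figure D3:**
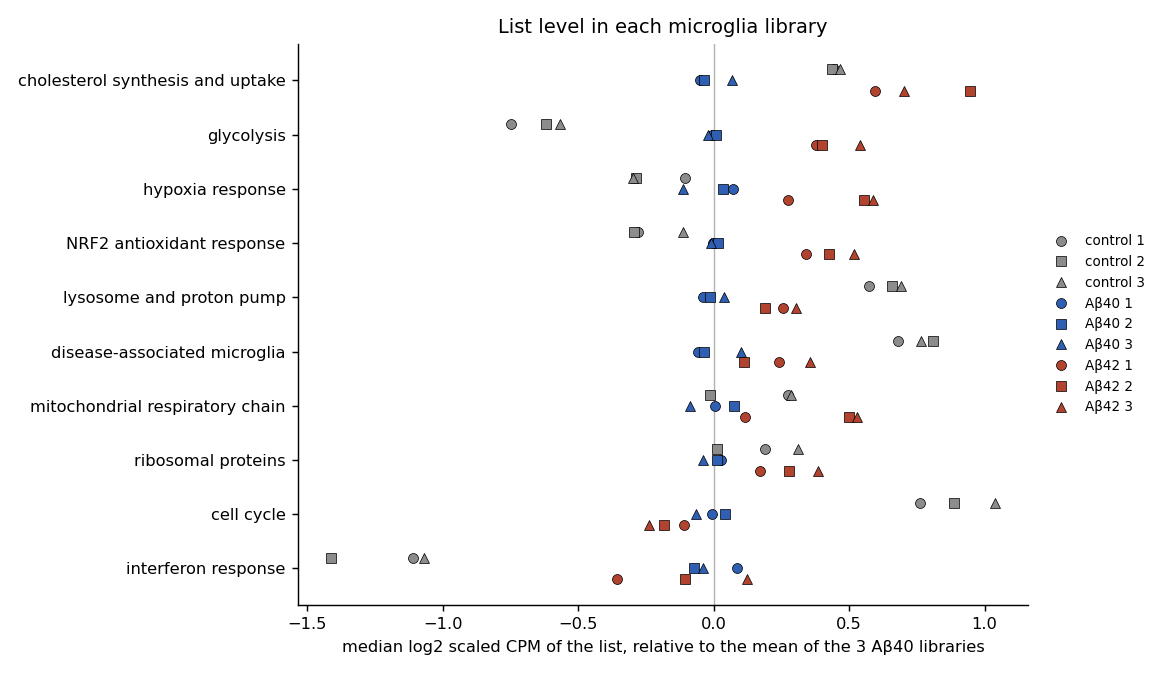
Median level of 10 gene lists in each of the 9 microglia libraries, as log2 scaled CPM relative to the mean of the 3 Aβ40 libraries (x axis). Grey is untreated, blue Aβ40 and red Aβ42, and the symbol gives the replicate (circle 1, square 2, triangle 3). In the mitochondrial list Aβ42 replicate 1 lay at 0.12, near the Aβ40 libraries, and in the cholesterol list at 0.59.

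Of 47 lysosomal genes 16 were higher with Aβ42, 0 lower and 31 not called (median 0.24), beside 11.3% higher over all genes. Those higher were 7 of 16 pump subunits and 9 of 31 hydrolases, membrane proteins and regulators. Atp6v0d2, a pump subunit of macrophages and osteoclasts, was at 30.8, 24.9 and 26.6 scaled CPM with Aβ42, 11.1, 10.5 and 9.19 with Aβ40 and 2.24, 1.74 and 2.14 in untreated cells, a log2 difference of 1.37 ± 0.16 (SE), adjusted p = 0.00284. In this gene Aβ42 replicate 1 was the highest library. The pump subunit Atp6v1b2 was at 481, 716 and 712 and 352, 346 and 346, a log2 difference of 0.88 ± 0.14 (SE), adjusted p = 0.00710, and the glycolipid hydrolase Gla at 84.4, 87.5 and 87.4 and 55.0, 57.5 and 45.5, a log2 difference of 0.70 ± 0.12 (SE), adjusted p = 0.00807. The collagen-cleaving cathepsin Ctsk was at 8.40, 8.88 and 9.69 and 4.10, 3.13 and 3.22, a log2 difference of 1.37 ± 0.22 (SE), adjusted p = 0.00774, a call that was lost without Aβ40 replicate 2. Summed over the list, untreated cells had 33869.5 to 36951 scaled CPM, Aβ42 cells 25867 to 27879.5 and Aβ40 cells 21392 to 24059.6. In this sum Aβ42 lay between untreated cells and Aβ40, but the pump subunits alone were highest with Aβ42. They summed to 7142, 7088 and 7421 with Aβ42, 5702, 5821 and 6048 with Aβ40 and 6115, 6072 and 6392 in untreated cells. Of 22 autophagy genes 4 were higher and 0 lower, among them the membrane proteins Gabarap (0.30 ± 0.091, adjusted p = 0.0394) and Map1lc3a (1.31 ± 0.32, adjusted p = 0.0233), and in Map1lc3a Aβ42 replicate 1 lay among the Aβ40 libraries. Both calls were lost without any fibril library other than Aβ42 replicate 1, and with the length correction Gabarap was at 0.043 (adjusted p = 0.817).

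Genes of the disease-associated state did not move as a block. Of 26 tested members 9 were higher with Aβ42 and 1 was lower, with a median of 0.23, beside 11.3% of all genes higher and 9.01% lower. The list lay below untreated cells with both fibrils, with a median log2 difference of -0.46 for Aβ42 and -0.74 for Aβ40. By role this was not so for the lipid and lysosome genes with Aβ42, at 0.0033 for Aβ42 and -0.41 for Aβ40. The medians were -0.60 and -0.78 for receptors and adaptors, and -1.1 and -1.4 for secreted and other genes. Trem2, the lipid and amyloid receptor, was at 206, 271 and 255 scaled CPM with Aβ42 and 146, 149.8 and 142 with Aβ40, a log2 difference of 0.74 ± 0.12 (SE), adjusted p = 0.00810. Untreated cells had 415, 421 and 500.3, above both fibrils. The galactose-binding lectin Lgals3 was at 925, 1084 and 1231 and 607, 672 and 641, a log2 difference of 0.76 ± 0.12 (SE), adjusted p = 0.00664, and the fatty acid carrier Fabp5 at 783, 629 and 676 and 447, 439.9 and 439, a log2 difference of 0.65 ± 0.10 (SE), adjusted p = 0.00710. Npc2, which moves cholesterol out of lysosomes, was at 357, 496 and 522 and 247, 256 and 278, a log2 difference of 0.82 ± 0.15 (SE), adjusted p = 0.00992. Trem2, Lgals3 and Fabp5 were called whichever fibril library was left out. Axl, a receptor for dying cells, was the member that was lower, at 191, 201 and 232 against 276, 276 and 258, a log2 difference of -0.37 ± 0.10 (SE), adjusted p = 0.0335. Its call was lost without any fibril library other than Aβ42 replicate 1, and that of Npc2 without Aβ42 replicate 3 or Aβ40 replicate 1 or 2.

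Homeostatic genes of resting microglia were below untreated cells with both fibrils, with a median log2 difference of -1.58 for Aβ42 and -1.67 for Aβ40. Between the fibrils 4 of 19 were higher and 2 lower (median -0.11), beside 11.3% of all genes higher and 9.01% lower. The transcription factor gene Jun was at 259.5, 363 and 386 with Aβ42 and 180.0, 196 and 199.95 with Aβ40, a log2 difference of 0.81 ± 0.14 (SE), adjusted p = 0.00921. Tmem119, a surface marker of microglia, was at 1.20, 4.55 and 5.13 and 1.69, 1.79 and 0.460, a log2 difference of 1.57 ± 0.43 (SE), adjusted p = 0.0321, and in untreated cells at 3.89, 4.25 and 4.12, a difference that rested on 3, 105 and 90 counts with Aβ42 against 7, 8 and 1 with Aβ40, and that was absent in Aβ42 replicate 1. The calls of Jun and Tmem119 were lost in 2 and 5 of the 6 fits that leave out a fibril library. Of 13 factors of microglial identity 2 were higher and 3 lower (median -0.080), beside the same shares over all genes. Cebpa (1.36 ± 0.35, adjusted p = 0.0269) and Spi1, which codes for the master factor PU.1 (0.32 ± 0.095, adjusted p = 0.0376), were higher. Hdac9, Sall1 (-0.49 ± 0.14, adjusted p = 0.0348) and Zeb2 (-0.81 ± 0.26, adjusted p = 0.0450) were lower, and of these 5 calls that of Hdac9 alone held whichever fibril library was left out.

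**Figure D4:**
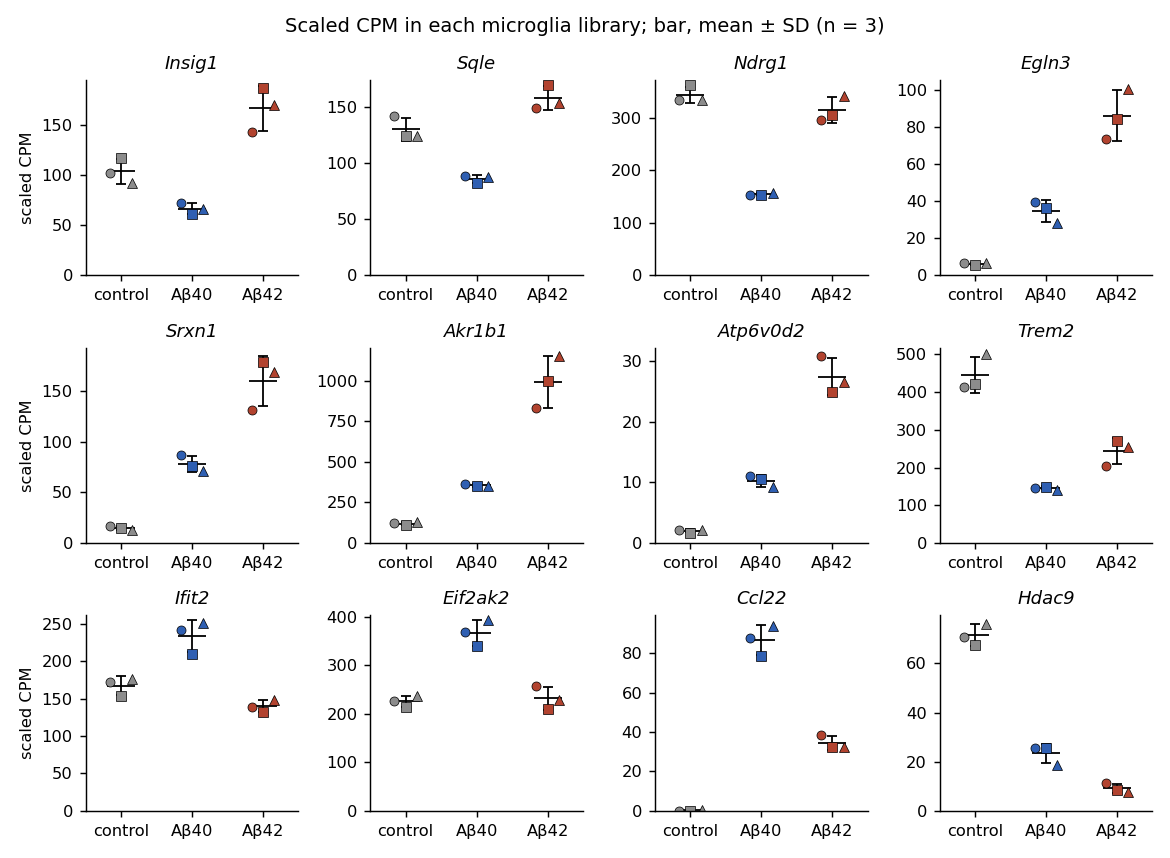
Scaled CPM (y axis) of 12 genes in untreated, Aβ40 and Aβ42 microglia, 1 point per library with the symbol for the replicate, and the mean ± SD of 3. Ifit2, Eif2ak2, Ccl22 and Hdac9 were lower with Aβ42. The 12 genes were chosen with their values known, so the lack of overlap between Aβ42 and Aβ40 libraries is no result.

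Some antiviral effectors of the interferon response were lower with Aβ42. Of 31 effectors 9 were lower, 1 was higher and 21 were not called, beside 9.01% of all genes lower. Of 7 signalling factors 0 were lower and 0 higher, a number of genes too small to set against that share. The medians were -0.20 and 0.048. Ifit2, which binds foreign RNA, was at 139, 133 and 148 scaled CPM with Aβ42, 241, 209.6 and 251 with Aβ40 and 172, 153 and 176 in untreated cells, a log2 difference of -0.74 ± 0.11 (SE), adjusted p = 0.00583. Eif2ak2, the RNA-activated kinase PKR that halts translation, was at 258, 210.4 and 228, 368, 339 and 393 and 225, 214 and 237, a log2 difference of -0.66 ± 0.11 (SE), adjusted p = 0.00757. In both genes the Aβ40 libraries stood above all others, and the Aβ42 libraries were near or below the untreated level. This was not so for the list, whose median in untreated cells was -1.11, -1.41 and -1.07 relative to the Aβ40 mean, below both fibrils. The RNA sensor Ifih1 was at 142, 132 and 147 with Aβ42 and 231, 199 and 206 with Aβ40, a log2 difference of -0.60 ± 0.11 (SE), adjusted p = 0.0110, and the ubiquitin ligase Dtx3l at 58.8, 45.9 and 52.2 and 95.1, 85.2 and 80.4, a log2 difference of -0.76 ± 0.15 (SE), adjusted p = 0.0144. Ifi27, a mitochondrial protein gene, was the member that was higher, at 315, 576 and 647 against 309, 315 and 268, a log2 difference of 0.79 ± 0.24 (SE), adjusted p = 0.0380, and in it Aβ42 replicate 1 lay among the Aβ40 libraries. Ifit2 and Eif2ak2 were called whichever fibril library was left out. The call of Ifih1 was lost without Aβ42 replicate 2 or Aβ40 replicate 1, and those of Dtx3l and Ifi27 without any library other than Aβ42 replicate 1. The list as a whole overlapped between the fibrils, at -0.36, -0.11 and 0.12 in the Aβ42 libraries and 0.086, -0.072 and -0.038 in the Aβ40 libraries, with Aβ42 replicate 1 the lowest. Without that library the median of the list turned from -0.084 to 0.019, and that of the effectors went from -0.20 to -0.10.

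The promoters of 3 of these genes are printed to show the letters GAAANNGAA of the interferon-stimulated response element, which is bound by interferon-activated factors. Each is the 250 bases before the gene start in RefSeq, 5′ to 3′ on the strand of the gene, in the rat build GRCr8, and capitals mark a match on either strand. Eif2ak2 (chr6:21940904-21941153, plus strand) and Ifih1 (chr3:67683969-67684218, minus strand) were lower with Aβ42 and Ifi27 (chr6:128355062-128355311, plus strand) was higher.
Eif2ak2: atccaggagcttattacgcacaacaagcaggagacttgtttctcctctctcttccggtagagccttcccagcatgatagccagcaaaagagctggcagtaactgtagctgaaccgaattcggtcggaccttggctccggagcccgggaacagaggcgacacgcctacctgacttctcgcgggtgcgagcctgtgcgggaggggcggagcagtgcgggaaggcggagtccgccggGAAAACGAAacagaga
Ifih1: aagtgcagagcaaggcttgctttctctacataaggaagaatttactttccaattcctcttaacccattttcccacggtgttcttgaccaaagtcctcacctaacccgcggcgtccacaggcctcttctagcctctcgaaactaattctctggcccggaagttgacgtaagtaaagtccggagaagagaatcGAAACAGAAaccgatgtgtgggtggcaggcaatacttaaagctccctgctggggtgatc
Ifi27: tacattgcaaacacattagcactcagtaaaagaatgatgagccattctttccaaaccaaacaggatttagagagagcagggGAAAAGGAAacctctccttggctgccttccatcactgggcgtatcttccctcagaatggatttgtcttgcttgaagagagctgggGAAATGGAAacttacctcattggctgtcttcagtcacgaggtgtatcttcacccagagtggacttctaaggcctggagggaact
The letters occurred in 17 of 28 promoters found for the list (60.7%) and in 6.12% of the promoters of 8286 tested genes. They were in 6 of the 7 promoters found for members that were lower, in the 1 of the member that was higher and in 10 of 20 for members that were not called. For the other lists, a sterol regulatory element (TCACNCCAC) was in 0 of 19 promoters of the cholesterol list and in 1.05% of all promoters, and an antioxidant response element (TGACNNNGC) was in 3 of 20 promoters of NRF2 targets and in 12.6% of all. The short hypoxia response element (ACGTG or GCGTG) was in 14 of 22 glycolytic promoters, in 9 of 18 hypoxia promoters and in 56.7% of all. NF-kB letters (GGGANTTTC) were in 3 of 10 promoters of NF-kB subunits and inhibitors, in 2 of 16 of cytokines and in 1.06% of all, E2F letters (TTTCGCGC or TTTGGCGC) in 6 of 27 promoters of the cell cycle and in 1.21% of all, and those of the amino acid response element (TGATGCAA) in 1 of 19 promoters of that list and in 0.434% of all. A match is not a binding site, and the absence of a match holds for these letters in this window only.

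Of 28 cytokine and chemokine genes 1 was higher with Aβ42 and 2 were lower (median -0.10), beside 11.3% and 9.01% of all genes. Without Aβ42 replicate 1, 13 of them were called, beside 53.8% of all genes tested in that fit. Ccl22, a chemokine that draws regulatory T cells, was at 38.4, 32.2 and 32.4 scaled CPM with Aβ42 and 87.8, 78.5 and 93.8 with Aβ40, and at 0, 0.193 and 0.458 in untreated cells, a log2 difference of -1.36 ± 0.16 (SE), adjusted p = 0.00284. It was called whichever fibril library was left out. Il12b, the subunit shared by IL-12 and IL-23, was at 7.997, 6.02 and 8.67 and 17.4, 13.2 and 24.8, a log2 difference of -1.26 ± 0.24 (SE), adjusted p = 0.0135, a call that was lost without Aβ42 replicate 2, Aβ40 replicate 1 or Aβ40 replicate 3. Ccl5 was at 20.0, 51.0 and 54.9 and 19.5, 21.5 and 20.2, a log2 difference of 1.12 ± 0.28 (SE), adjusted p = 0.0257. Here Aβ42 replicate 1 was among the Aβ40 libraries, and the difference was in the other Aβ42 libraries. Its call was lost without any fibril library other than Aβ42 replicate 1.

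Genes that the study discusses as products of activated microglia were above untreated cells with both fibrils, and those in the next sentences did not pass the test between them. Il1b was at 4648, 3725 and 4656 with Aβ42, 4391, 4309.6 and 5109.6 with Aβ40 and 243, 199 and 233 in untreated cells (-0.084 ± 0.13, adjusted p = 0.632). Tnf was at 1129.6, 907 and 1073 and 1188, 1258 and 1353 (-0.29 ± 0.11, adjusted p = 0.0754), and it did not overlap. With the length correction Tnf was called lower, at -0.57 (adjusted p = 0.0339). Ccl2 had a log2 difference of -0.30 ± 0.21, adjusted p = 0.301, Cxcl1 of -0.21 ± 0.22, adjusted p = 0.486, Mmp9 of -0.23 ± 0.13, adjusted p = 0.220, Mmp12 of 0.18 ± 0.16, adjusted p = 0.433 and C1r of -0.12 ± 0.10, adjusted p = 0.387. Nos2, the inducible nitric oxide synthase, was at 1453, 454 and 575 with Aβ42 and 1303, 1194 and 1601 with Aβ40 (-0.73 ± 0.37, adjusted p = 0.164). Its Aβ42 replicate 1 was as high as the Aβ40 libraries and the other Aβ42 libraries were lower. Without Aβ42 replicate 1, Nos2 (-1.41, adjusted p = 3.13e-05), Ccl2 (-0.58, 0.00379), Cxcl1 (-0.53, 0.00714) and Tnf (-0.36, 0.00609) were lower with Aβ42. In that fit 53.8% of all tested genes were called in either direction.

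Genes of repair and alternative activation gave 3 members that were higher and 1 that was lower of 12 tested, beside 11.3% and 9.01% of all genes. Cebpb, a transcription factor of inflammatory and alternative activation, was at 92.4, 242 and 273 with Aβ42 and 58.9, 63.3 and 73.1 with Aβ40, a log2 difference of 1.67 ± 0.31 (SE), adjusted p = 0.0115, and its call was lost without any library other than Aβ42 replicate 1. F13a1, a transglutaminase of macrophages, was low with both fibrils, at 3.60, 3.03 and 4.56 and 0.965, 1.34 and 0.460 (4, 6 and 1 counts with Aβ40), a log2 difference of 1.87 ± 0.44 (SE), adjusted p = 0.0218. Arg1, the arginase of alternative activation, was at 6.40, 2.77 and 4.73 and 1.93, 1.79 and 0.460, and its log2 difference of 1.36 ± 0.50 did not pass (adjusted p = 0.0692). The scavenger receptor Msr1 was lower at -0.57 ± 0.17, adjusted p = 0.0403. The calls of F13a1 and Msr1 were lost in the same 5 fits as that of Cebpb. Fam110c and Cftr did not pass the filter on low counts.

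In the remaining lists calls went both ways, beside 11.3% of all genes higher and 9.01% lower. Of the calls given next with a gene name, all except Trem2 and Plau were made in no fit that left out a library other than Aβ42 replicate 1. Of 11 NF-kB subunits and inhibitors 2 were higher and 0 lower (median 0.091), Nfkb2 (0.55 ± 0.15, adjusted p = 0.0309) and the adaptor Traf1 (0.50 ± 0.15, adjusted p = 0.0411). Among 6 inflammatory enzymes 1 was higher, Gch1, which makes a cofactor of nitric oxide synthase (1.0 ± 0.25, adjusted p = 0.0250). Of 10 genes of MHC class II and costimulation 1 was lower, the T cell ligand Cd86 (-0.64 ± 0.19, adjusted p = 0.0369). Among 17 complement genes 1 was lower (median -0.053), and a complement gene was also called in the fit without Aβ40 replicate 2. In the TGF-beta pathway 2 of 15 were higher, the signal carrier Smad3 (0.51 ± 0.13, adjusted p = 0.0272) and the inhibitor Smad7 (0.64 ± 0.19, adjusted p = 0.0398), and 3 were lower, the ligand Tgfb2 (-0.72 ± 0.16, adjusted p = 0.0190) and the receptors Tgfbr1 (-0.60 ± 0.19, adjusted p = 0.0465) and Tgfbr3 (-0.37 ± 0.12, adjusted p = 0.0476). Of 21 matrix proteases and inhibitors 2 were higher, the plasminogen activator Plau (0.74 ± 0.15, adjusted p = 0.0150) and Mmp3 (0.70 ± 0.16, adjusted p = 0.0214), and 1 was lower, the sheddase Adam10 (-0.62 ± 0.17, adjusted p = 0.0291). Of 21 amyloid receptors and degrading enzymes 4 were higher, among them Trem2, Plau and the scavenger receptor Scarb1 (0.52 ± 0.17, adjusted p = 0.0498), and 2 were lower, Msr1 and the insulin- and Aβ-degrading enzyme Ide (-0.62 ± 0.16, adjusted p = 0.0284). Of 20 aminoacyl-tRNA synthetases 1 was higher, Vars (0.86 ± 0.21, adjusted p = 0.0241), and 1 was lower, Tars (-0.37 ± 0.12, adjusted p = 0.0417).

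Of 20 genes of mitosis 5 were lower with Aβ42 and 0 higher (median -0.38), and 15 were not called, beside 9.01% of all genes lower and 11.3% higher. Of 16 genes of DNA replication 2 were lower and 2 higher (median -0.080). Mki67, the proliferation marker, was at 32.4, 22.0 and 22.4 scaled CPM with Aβ42, 53.8, 50.3 and 59.8 with Aβ40 and 102, 122 and 142 in untreated cells, a log2 difference of -1.15 ± 0.17 (SE), adjusted p = 0.00613, and was called whichever fibril library was left out. Pcna, the sliding clamp of replication and repair, was higher at 141, 181 and 181 against 111, 102 and 91.0, a log2 difference of 0.73 ± 0.13 (SE), adjusted p = 0.00921, a call lost without Aβ42 replicate 3, Aβ40 replicate 2 or Aβ40 replicate 3. The remaining lower genes of the smallest p-values had no common list. Hdac9, a histone deacetylase, was at 11.2, 8.66 and 7.64 with Aβ42, 25.6, 25.7 and 18.8 with Aβ40 and 70.9, 67.4 and 76.1 in untreated cells, a log2 difference of -1.47 ± 0.17 (SE), adjusted p = 0.00284. The transcription factor gene Klf12 was at 6.80, 5.11 and 4.33 and 13.3, 16.3 and 17.5, a log2 difference of -1.63 ± 0.21 (SE), adjusted p = 0.00339. The cadherin Cdh6 was at 4.40, 3.72 and 2.74 and 10.4, 10.7 and 11.5, a log2 difference of -1.67 ± 0.22 (SE), adjusted p = 0.00433, and the neuregulin receptor Erbb4 at 23.2, 11.0 and 11.8 and 39.8, 48.5 and 39.5, a log2 difference of -1.67 ± 0.23 (SE), adjusted p = 0.00530. Pgap1, Zhx3 and Ppm1e had log2 differences of -1.06, -1.06 and -1.44. The 7 genes from Hdac9 to Ppm1e were called whichever fibril library was left out. This was among the rules by which genes were named, so it is no result for genes chosen by it.

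Ribosomal and respiratory chain genes gave many calls in 1 direction, and none of them was called in every fit. Of 75 ribosomal protein genes 17 were higher and 0 lower (median 0.27), and of 73 respiratory chain genes 24 were higher and 1 lower (median 0.39). The shares over all genes were 11.3% higher and 9.01% lower. The level of the ribosomal list was 0.17, 0.28 and 0.39 in the Aβ42 libraries and 0.028, 0.010 and -0.039 in the Aβ40 libraries, and that of the respiratory chain was 0.12, 0.50 and 0.53 and 0.0052, 0.076 and -0.087. In the respiratory chain, Aβ42 replicate 1 lay near the Aβ40 libraries. Of both lists, 0 genes were called whichever fibril library was left out. Across all genes the difference went with the length of the gene. The genomic span in RefSeq (GRCr8, found for 99% of tested genes) had a median of 24.4 kb over all tested genes, 11.7 kb for genes higher with Aβ42 and 68.4 kb for genes lower. The genes with a span were split into 4 equal groups by it. In the shortest group 20.3% were higher and 2.35% lower, and in the longest group 3.43% were higher and 20.4% lower. The median level of the shortest group was 0.28 and 0.31 above the Aβ40 mean in Aβ42 replicates 2 and 3 and 0.049 above it in Aβ42 replicate 1, and that of the longest group was -0.28, -0.31 and -0.075.

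**Figure D5:**
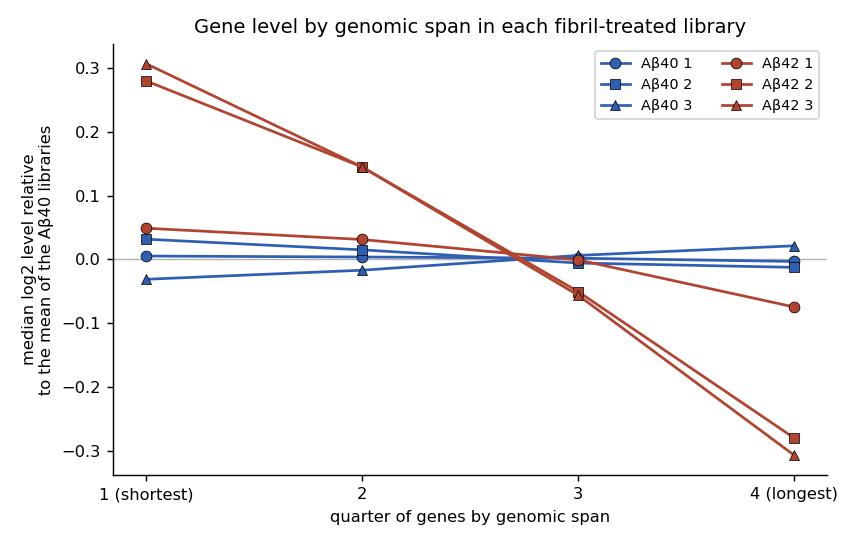
Median log2 level relative to the mean of the Aβ40 libraries (y axis) of genes in 4 equal groups by genomic span (x axis, 2681 genes each), for each fibril-treated library. Aβ42 replicates 2 and 3 went from 0.28 and 0.31 in the shortest group to -0.28 and -0.31 in the longest, and Aβ42 replicate 1 from 0.049 to -0.075.

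When the trend with gene span was removed from each library, 1585 genes differed, 908 higher (8.38%) and 677 lower (6.25%). The median of the ribosomal list was then 0.013 with 4 genes called, and that of the respiratory chain 0.22 with 10 called. Cholesterol synthesis was at 0.70 with 18 called, glycolysis at 0.34 with 11, the hypoxia response at 0.36 with 9, NRF2 targets at 0.30 with 9 and lysosomal genes at 0.19 with 12. The interferon list was at -0.20 with 12 called, all lower. The disease-associated list was at 0.13 with 4 called, and Fabp5 (adjusted p = 0.0653) and Axl (0.0513) were no longer called. Hdac9, Klf12, Cdh6 and Erbb4 kept log2 differences of -1.02, -1.25, -1.37 and -1.23.

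The same difference between the fibrils was set against that in astrocytes, where few genes were called. The interaction of fibril and cell type was called for 45 of 11581 genes (0.389%), 20 with a higher and 25 with a lower difference in microglia. The count was 1735 without microglia Aβ42 replicate 1, 7 to 27 without any other fibril library, and 5 with the replicate number as a block. The genes given next, from Pxdc1 to Cd93, were chosen by their small p-values in this test. In the direction of a higher difference, Pxdc1 was at 45.2, 76.2 and 86.6 with Aβ42 and 27.8, 26.4 and 29.4 with Aβ40 in microglia, and its difference was 1.36 there and -0.30 in astrocytes (interaction 1.67 ± 0.26, adjusted p = 0.00815). The membrane protein gene Stom had differences of 0.76 and -0.23 (1.0 ± 0.15, 0.00815), Ndrg1 of 1.03 and 0.12 (0.92 ± 0.15, 0.0115) and the PI3-kinase inhibitor Pik3ip1 of 1.0 and -0.35 (1.36 ± 0.23, 0.0134). In the opposite direction, Hdac9 had -1.47 in microglia and 0.28 in astrocytes (-1.72 ± 0.28, 0.0133) and the VEGF receptor Flt1 -0.99 and 0.77 (-1.74 ± 0.25, 0.00808). Flt1 is also among the endothelial markers given above, and the part of such cells in its difference was not tested. For Slco1c1, a thyroid hormone transporter, and Cd93 the difference lay in astrocytes, at 2.95 and 1.5, while in microglia it was -0.27 and -0.30. Of the sterol genes, Insig1 (0.96, adjusted p = 0.0391) and Sqle (0.82, 0.0357) passed this test. The interaction medians of the lists were 0.55 for cholesterol synthesis, 0.41 for glycolysis, 0.50 for the hypoxia response, 0.33 for NRF2 targets and 0.030 over all genes.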

How the data were processed

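Deposited gene counts of primary rat microglia were analysed. Strand-specific mRNA libraries were made and sequenced by a service company, and the authors deposited the counts of reads per gene. Their notes name STAR, Salmon, DESeq2 and the rn5 build, with versions not given in the sources used here. Each deposited table gives raw counts, and the rows for reads outside genes (21.4 to 24.2%) or ambiguous between genes were left out of library sizes and tests.

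All 9 microglia libraries, 3 per group, were fitted together by edgeR 4.0.16 (quasi-likelihood, TMM scaling, filterByExpr, R 4.3.3), with Benjamini-Hochberg adjustment at 0.05 over 10837 genes, and SE = |log2 difference| divided by the square root of F. The interaction with astrocytes used 18 libraries. The scripts were tested on simulated data. A count of 3, taken as the floor, equals 0.13 to 1.4 CPM. It covers counting error only.

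The gene lists and the members were chosen with earlier results of these data known. Genes named were the 8 smallest p-values per direction among calls of 2-fold or more with no overlap, 4 per list and direction, those the study's text discusses, 8 per direction called in every leave-one-out fit, and 4 per direction of the interaction. Exceptions are stated, and some genes that the rule names are not reported here. Alternatives were other scalings and filters, DESeq2 1.42.0, fibril libraries alone, thinning, a replicate block, each library left out and, chosen after seeing the data, a correction for gene length. Spans and promoters came from RefSeq (GRCr8), matched by symbol for 99% of genes, and no GRCr8 coordinate was set against rn5.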

Additional observations from a re-analysis of the deposited data

Results flagged for a closer look

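Of the 104 genes named here, 16 had a difference between Aβ42 and Aβ40 fibrils that was not the same in microglia and astrocytes. This is by the interaction term of edgeR's quasi-likelihood test, with adjusted p-values of 0.0081 to 0.042. Genes were named partly by their small p-values in this same test or in microglia, so the number that passed is no support. The interaction is the log2 difference in microglia minus that in astrocytes. It was 0.96 for Insig1 and 0.82 for Sqle of cholesterol synthesis, 0.92 for Ndrg1 and 1.07 for Egln3 of the hypoxia response, 1.45 for the aldolase Aldoc, 1.47 for the aldose reductase Akr1b1 and 1.90 for the cathepsin Ctsk. It was 1.67 for Pxdc1, 1.0 for Stom and 1.36 for Pik3ip1. On the other side it was -1.72 for Hdac9, -1.16 for Zhx3, -1.74 for Flt1, -0.88 for Mmp9, -1.78 for Cd93 and -3.18 for Slco1c1. For Mmp9, Cd93 and Slco1c1 the difference within microglia was not called. Over all tested genes, 45 of 11581 were called by this term (0.389%). That count was 1735 without microglia Aβ42 replicate 1, 7 to 27 without any other fibril library, and 5 with the replicate number as a block.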

How the results depend on the processing

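The count of 2198 genes (1222 higher, 976 lower) was 106 (59 and 47) in the 6 fibril libraries alone, 656 (387 and 269) after thinning, and 49 (47 and 2) with Aβ42 replicate 1 alone against Aβ40. At an unadjusted p under 0.05 it was 4329. Without 1 library it ranged from 99 to 6004 (69 to 3018 higher, 29 to 2986 lower), and Aβ42 replicate 1 gave the highest value. The count of 392 genes with 2-fold differences was 251 with 10 counts or more in every library, 58 in the 6 libraries alone, 147 after thinning, 19 with Aβ42 replicate 1 alone, and 47 to 966 without 1 library. Whether equally numbered libraries were paired is not stated. Their deviations from the group means had correlations of -0.075, 0.22 and -0.19 for numbers 1, 2 and 3. Libraries of other numbers had mean correlations of 0.0054, -0.078 and 0.125. With 3 libraries per group these values cannot settle whether the samples were paired. A replicate block gave 752 genes (400 and 352) and 184 with 2-fold differences. The 45 genes of the interaction were 280 in the 12 fibril libraries alone, 5 with the block, 326 by DESeq2, 2195 at an unadjusted p under 0.05, and 7 to 1735 without 1 library, the last without Aβ42 replicate 1. The 74 genes called whichever library was left out were 276 by DESeq2 and 201 with no filter on low counts. The cause of these changes was not tested.

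Of the list medians, those that moved by more than the spread between replicates were as follows. With Aβ42 replicate 1 alone, the median was 0.59 for cholesterol synthesis, 0.12 for fatty acid synthesis, 0.33 for glycolysis, 0.069 for amino acid stress, -0.37 for interferon, 0.12 for cytokines, 0.11 for inflammatory enzymes, -0.23 for complement, 0.077 for homeostatic genes, 0.054 for repair, -0.065 for TGF-beta, 0.043 for autophagy, 0.037 for tRNA synthetases, 0.15 for ribosomal proteins and 0.11 for the respiratory chain. With the length correction it was 0.027 for cholesterol efflux, 0.25 for fatty acid synthesis, 0.34 for glycolysis, -0.28 for ER chaperones, -0.093 for heat shock, 0.30 for NRF2 targets, -0.28 for cytokines, -0.035 for NF-kB, -0.45 for MHC class II, -0.17 for complement, 0.048 for matrix proteases, -0.27 for the cell cycle and 0.013 for ribosomal proteins. Thinning gave 0.31 for fatty acid synthesis, 0.050 for inflammatory enzymes and 0.019 for NF-kB. Fatty acid synthesis was 0.18 with upper-quartile scaling, 0.25 with 10 counts or more and 0.20 in the 6 libraries alone, and MHC class II was -0.20 with 10 counts or more. Without 1 library, medians ranged from 0.12 to 0.25 for fatty acid synthesis and desaturation, 0.30 to 0.53 for hypoxia response, 0.16 to 0.28 for amino acid stress response, -0.18 to -0.040 for ER chaperones, -0.0076 to 0.12 for heat shock proteins, 0.33 to 0.47 for NRF2 antioxidant response, -0.21 to 0.052 for inflammatory enzymes and acute-phase proteins, -0.0076 to 0.10 for NF-kB subunits and inhibitors, -0.39 to -0.14 for MHC class II and costimulation. They ranged from -0.15 to -0.036 for complement, -0.24 to 0.088 for homeostatic microglia, 0.20 to 0.57 for repair and alternative activation, 0.015 to 0.10 for matrix proteases and inhibitors, 0.018 to 0.21 for TGF-beta pathway, -0.10 to 0.068 for amyloid receptors and degrading enzymes, -0.22 to -0.15 for cell cycle and -0.15 to 0.084 for microglia identity factors.

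Among 104 named genes, 12 of 1755 alternative values turned direction. With Aβ42 replicate 1 alone these were -0.031 for Ccl5, 0.015 for Il1b, 0.15 for Ccl2, 0.27 for Cxcl1, 0.093 for Nos2, -0.29 for Tmem119 and -0.29 for Cebpa. Il1b was 0.017 without Aβ42 replicate 2, and Mmp12 was -0.029 without Aβ42 replicate 1. Mbp was 0.20 with the length correction and ranged from -0.14 to 0.064 without 1 library, at 0.051 without Aβ42 replicate 1 and 0.064 without Aβ40 replicate 2. Of the others, 1310 kept direction and call, 425 lost the call and 8 gained it. The limits are the depth of Aβ42 replicate 1 and of the Aβ40 libraries, 3 libraries per group, and replicates of unstated origin.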
